A study of Mus musculus with 6 samples.

Results

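Glycolysis is described here through 34 genes of the pathway and of the fate of its product, pyruvate, out of 32245 gene symbols in the count table. The members were chosen by name: every row whose symbol equals one of the 34 was taken, which gave 35 rows because Aldoa has 2, whose counts were summed. They cover hexokinases and the hexose isomerase (Hk1, Hk2, Gpi1), the phosphofructokinase step (Pfkl, Pfkm, Pfkp, Pfkfb2, Pfkfb3, Pfkfb4, Fbp2), aldolases and triose isomerase (Aldoa, Aldoc, Tpi1), the payoff phase from Gapdh to Pkm, lactate dehydrogenases and monocarboxylate carriers, and mitochondrial pyruvate entry.

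Single-cell RNA was measured in the cardiogenic region of wild type C57BL/6 mouse embryos at E10.5, a day in mid-gestation. The labels give 3 samples from females pretreated with vehicle, which had normal blood glucose, and 3 from females pretreated with streptozotocin (STZ), a toxin of insulin-producing cells, which were hyperglycemic. All embryos had a male parent of normal glycemia, so the exposure is maternal. The deposited table pools 6 libraries that carry only a number from 1 to 6 at the end of each cell barcode, and nothing in the files pairs that number with a sample or treatment. STZ and vehicle could therefore not be compared, the table counts as 1 sample, and no p-value is given. The members are described across cell classes instead, with the 6 libraries as a check that a difference recurs.

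A barcode was used when it had 2500 or more genes, and when mitochondrial genes gave no more than 10% of its unique molecular identifiers (UMIs, each marking 1 captured RNA molecule), which left 35962 of 53362. The libraries held 200462921 to 248426458 UMIs each, and the medians per retained barcode were 30533 to 35634 UMIs. A cell entered a class when at least 3 genes of exactly 1 marker list were on, and each class is called "-like" after its list. The list for the second heart field and pharynx gave SHF-like cells. In all, 22820 cells (63.5%) fell in 14 classes of at least 50 cells, 9805 (27.3%) in none and 3266 (9.08%) in more than 1. Cells of the same barcode in different libraries were few, with 141 of 35820 sequences shared. The classes ranged from 72 myeloid-like cells, with 1 library of at least 20 cells, to 7180 neural crest mesenchyme-like cells. There were 2731 cardiomyocyte-like cells. Some gates were weaker: 87.6% of the 194 branchiomeric muscle-like cells sat at the minimum of 3 markers, with a median of 558 CPM for their own list and 547 for the second heart field list. Of the SHF-like cells, 66.4% sat at that minimum. Epicardium-like cells carried a median of 1372 CPM of the cardiomyocyte list, against 1492 of their own. Endoderm and surface ectoderm lists share Epcam and Cldn6. The myeloid-like class also held Prtn3 and Mpo, genes of granulocyte precursors, at 767 and 207 CPM. Elane, another such gene, was only 5.58 CPM there.

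Levels are UMIs of a gene per 1000000 UMIs of the class (CPM), each with an exact Poisson interval at 95% that covers counting error only. The 3′ kit counts molecules and not fragments, so levels were not divided by gene length, but the share of molecules caught may differ between genes, and isoform shares are best compared between classes. A member was called in a class when the higher value reached 10 CPM, the ratio to the median of the other 13 classes was at least 2 or at most 0.5, and every library with enough cells showed the same direction. Beside each count stands the percentage of all genes tested that met the same rule.

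Glycolysis turns glucose into pyruvate through a fixed chain of enzymes, most of which exist as isoforms encoded by separate genes with their own tissue patterns. Pyruvate is either reduced to lactate, which leaves through monocarboxylate carriers and restores NAD for further glycolysis, or enters mitochondria through a carrier and is oxidised by pyruvate dehydrogenase, which kinases of the Pdk family switch off. The early embryonic heart is known for strong use of glycolysis and lactate before its later turn to fatty acids, and red cells rely on glycolysis once they lose mitochondria.

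The members stood highest in cardiomyocyte-like cells. Their summed level there was 18141 CPM, 17313 to 18743 over the 6 libraries, against 10072 in myeloid-like, 10012 in epicardium-like and 9540 in neural crest mesenchyme-like cells. It was 5931 in endocardial cushion mesenchyme-like and 2548 in erythroid-like cells, the lowest. Without hemoglobin and mitochondrial genes in the totals, these sums were 6093 and 4391. No library of another class reached the lowest cardiomyocyte-like library. Of the 34 members, 24 had their highest level in cardiomyocyte-like cells, 3 in myeloid-like, 3 in erythroid-like, 2 in neuron-like and 1 each in epicardium-like and branchiomeric muscle-like cells. Some of these orders did not recur in every library. The highest class was above the next in 3 of 6 libraries for Eno2 and Slc16a1, and in 2 of 5 for Pcx. It was above in 4 of 6 for Pfkfb2, 4 of 5 for Aldoc and Ldhb, and 5 of 6 for Pdk4. Where myeloid-like cells were highest or next, only 1 library could be compared. Of the 28 members reaching 10 CPM in some class, 21 peaked in cardiomyocyte-like cells, against 8.78% of all genes of that level. The highest class had at least 2 times the median class for 21 of 28 (42.9% of all genes) and at least 4 times for 7 (25.7%).

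**Figure D1:**
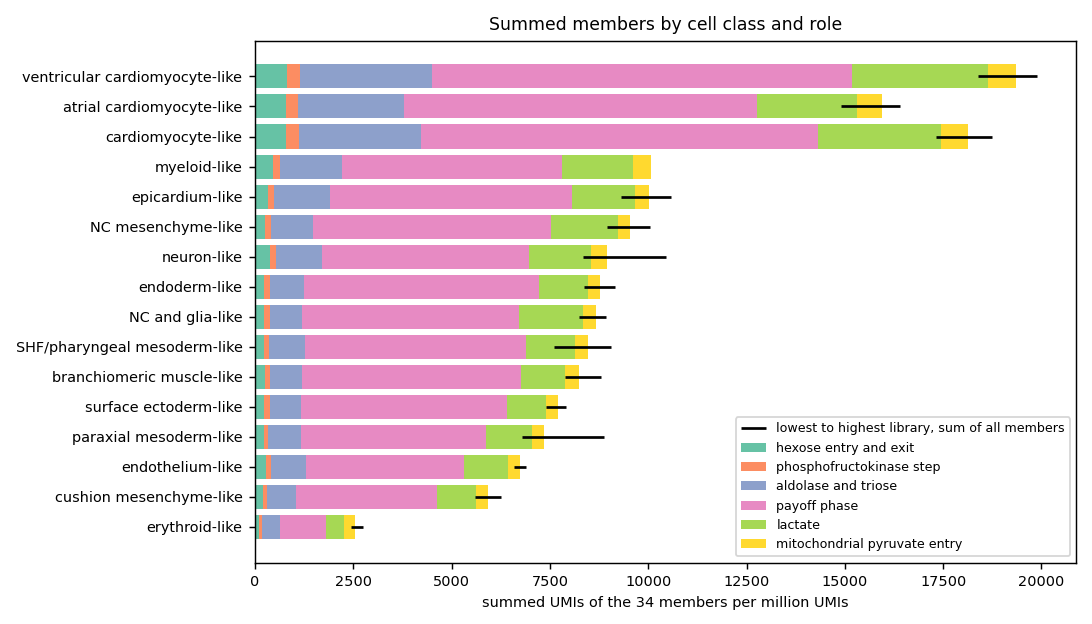
Summed CPM of the 34 members (horizontal axis, from 0) in each marker-gated class, coloured by role; black lines run from the lowest to the highest library. The cardiomyocyte-like bar ends at 18141 and its atrial and ventricular subsets at 15956 and 19351, all above every other class.

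Against the median class, 18 of 25 tested members were higher in cardiomyocyte-like cells (11.4% of all genes) and 0 were lower (10.2%). A gene was tested where cardiomyocyte-like cells or the median class reached 10 CPM, and Hk1, Pfkm, Pfkp and Pgam2 passed only through cardiomyocyte-like cells. Of all 34 members, 30 had a ratio above 1. Pfkfb3 (0.966), Pfkfb4 (0.872), Pcx (0.774) and Fbp2 (0.259), all under that minimum, lay below. The median ratio of the 25 tested members was 2.38, where that of all 9065 tested genes was 0.844. The 12 largest ratios among the called members were those of Pgam2, Pfkp, Hk1, Eno3, Slc16a3, Aldoa, Gpi1, Tpi1, Pgk1, Ldha, Pfkm and Pdk1. The smallest of the 25 ratios were those of Pkm (1.14) and Pfkl (1.43).

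**Figure D2:**
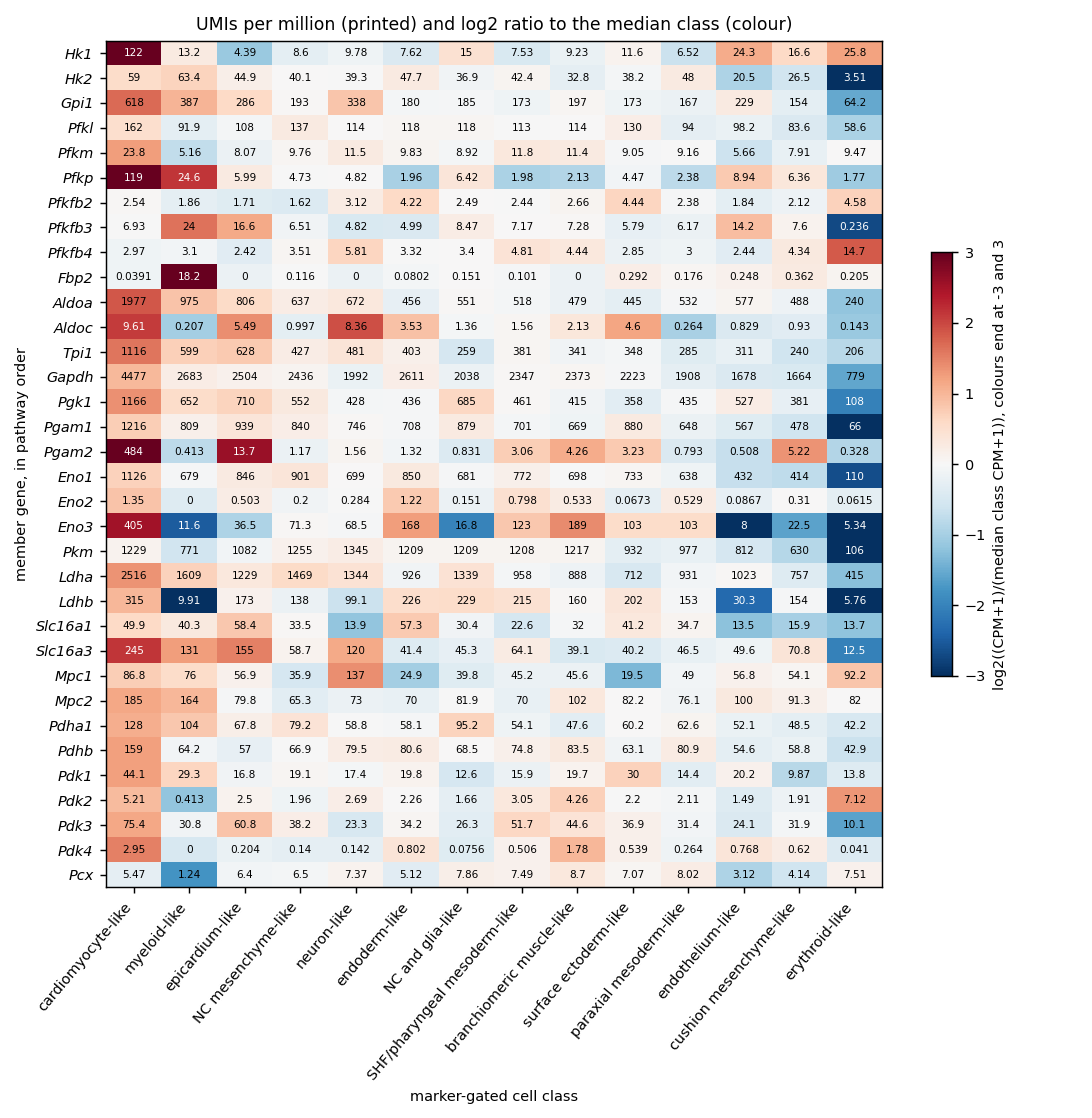
Each cell prints CPM of 1 member (rows, in pathway order) in 1 class (columns, by summed level); colour is the log2 ratio to the median class with 1 added to both. The cardiomyocyte-like column is red for most rows, the erythroid-like column is blue for most.

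At the first step, hexokinases phosphorylate glucose and so trap it in the cell. Hk1, the form that is widespread in adult tissues, lay between 103 and 143 CPM over the cardiomyocyte-like libraries with a median of 122. The pooled level was 122 (120 to 124), 12.5 times the median class at 9.78. Erythroid-like (25.8) and endothelium-like cells (24.3) came next, with ratios of 2.64 and 2.48, and both were called. In epicardium-like cells Hk1 stood at 4.39, called lower at a ratio of 0.377. The lowest cardiomyocyte-like library was above every library of every other class. Hk2, the insulin-responsive muscle form, varied less: it was 59.0 in cardiomyocyte-like and 63.4 in myeloid-like cells, against a median class of 39.7, and 3.51 in erythroid-like cells.

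The Hk1 share of both hexokinases was thus 67.4% (66.8 to 68.0, exact binomial) in cardiomyocyte-like cells, 88.0% in erythroid-like, 54.3% in endothelium-like and 38.5% in endocardial cushion mesenchyme-like cells. In the median class it was 20.9%, and the lowest value was 8.90% in epicardium-like cells. Hk2 gave most hexokinase UMIs in 11 of 14 classes. Over the libraries the cardiomyocyte-like range ran from 63.4% to 71.9% and the epicardium-like range 7.80% to 10.0%. Gpi1, which turns glucose phosphate into fructose phosphate, was 618 CPM in cardiomyocyte-like, 387 in myeloid-like and 338 in neuron-like cells, with 64.2 in erythroid-like cells.

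Phosphofructokinase commits sugar to glycolysis, as a tetramer of liver (Pfkl), muscle (Pfkm) and platelet (Pfkp) subunits. Pfkp stood at 104 to 130 CPM over the cardiomyocyte-like libraries, median 120, and its pooled level of 119 was 25.2 times the median class. The next class, myeloid-like, had 24.6, and no other class passed 8.94. Pfkm, despite its name, reached only 23.8 in cardiomyocyte-like cells, 2.59 times the median class, and was called there. Pfkl was the most counted subunit in all 14 classes, at 162 in cardiomyocyte-like and 58.6 to 137 elsewhere. Subunit shares in cardiomyocyte-like cells were therefore 53.1% Pfkl, 39.1% Pfkp and 7.79% Pfkm, whereas the median class had 88.5%, 3.42% and 7.68%.

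The Pfkfb enzymes make and break a fructose bisphosphate that strongly activates phosphofructokinase. All 3 were scarce. Pfkfb3, the form with high kinase activity, was called higher in endothelium-like (14.2 CPM, ratio 2.05), epicardium-like (16.6, ratio 2.40) and myeloid-like cells (24.0, ratio 3.46), and was 6.93 in cardiomyocyte-like cells. Erythroid-like cells had 0.236, with 1.38% of cells holding a UMI. They had Pfkfb4 instead, at 13.1 to 17.4 CPM over the libraries and 14.7 pooled, 4.43 times the median class. Of the UMIs of these 3 genes, Pfkfb4 gave 75.3% there (73.3 to 77.3) and 26.2% in the median class. Pfkfb1, the liver form and no member, also had its highest level in erythroid-like cells, at 8.90 CPM. With Pfkfb1 counted, the Pfkfb4 share was 51.7% there (49.9 to 53.6) and 21.4% in the median class. Pfkfb2, known as the heart form, was at most 4.58 CPM in any class and 2.54 in cardiomyocyte-like cells. Fbp2, which reverses the phosphofructokinase step, was at or below 0.362 CPM except in myeloid-like cells, at 18.2. Those 88 UMIs came from 8 of 72 cells in 3 libraries, and 81.8% of them from 3 cells.

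Aldolase splits the hexose and Tpi1 interconverts the triose phosphates it gives. Aldoa ranged from 1891 to 2026 CPM over the cardiomyocyte-like libraries, median 1991, and was 3.71 times the median class. Tpi1 ranged from 1037 to 1214, median 1084, at 3.21 times. In neither gene did a cardiomyocyte-like library overlap the pooled value of another class, the nearest being 975.4 (myeloid-like) and 628 (epicardium-like). Aldoc, the brain form, stayed under the minimum of 10 in all 14 classes, with 9.61 in cardiomyocyte-like and 8.36 in neuron-like cells.

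In the payoff phase, Gapdh, Pgk1, phosphoglycerate mutase, enolase and pyruvate kinase make NADH and ATP. Gapdh was the most counted member, at 4477 CPM in cardiomyocyte-like cells and 1664 to 2683 in the others apart from erythroid-like cells (779). Its cardiomyocyte-like ratio of 2.01 sat at the fold asked for, and was 1.998 without library 3 and 1.94 with cells in more than 1 gate assigned. Pgk1, on chromosome X, was 1166, at a ratio of 2.67. Pgam1 (1216), Eno1 (1126) and Pkm (1229) lay above the median class in all 6 libraries with ratios of 1.72, 1.61 and 1.14, and none was called. Leaving out erythroid-like cells, Pkm ran from 630 to 1345 CPM, highest in neuron-like cells. Its splice forms Pkm1 and Pkm2 are not separated by counts per gene.

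Phosphoglycerate mutase had the member with the highest ratio, Pgam2. This muscle form ranged from 458 to 508 CPM over the cardiomyocyte-like libraries with a median of 477. Its pooled level was 484 (480 to 487), 368 times the median class, which had only 1.32 CPM. For scale, the cardiomyocyte gene Myl3 stood at 4001 CPM in cardiomyocyte-like cells and at 1.45 to 7.81 CPM in the other classes. How much of such low levels came from RNA of other cells was not tested. A Pgam2 UMI was found in 97.5% of cardiomyocyte-like cells, and in 79.8% after thinning every cell to 5000 UMIs. In endothelium-like and erythroid-like cells the shares were 1.502% and 2.07% before and 0.215% and 0.345% after thinning. Median depths were 38262 and 65138 UMIs there, against 43335 in cardiomyocyte-like cells. Epicardium-like cells came next at 13.7 CPM, called at a ratio of 10.4. The cardiomyocyte gene Myl7 stood at 1039 CPM in that class, against 12321 in cardiomyocyte-like cells, and its part in the Pgam2 level was not tested. Pgam2 supplied 28.5% of mutase UMIs in cardiomyocyte-like cells (28.3 to 28.6) and 0.287% in the median class. Branchiomeric muscle-like cells, marked by skeletal muscle regulators such as Myf5 and Msc, had only 4.26 CPM, with 0 in 1 of the 6 libraries.

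**Figure D3:**
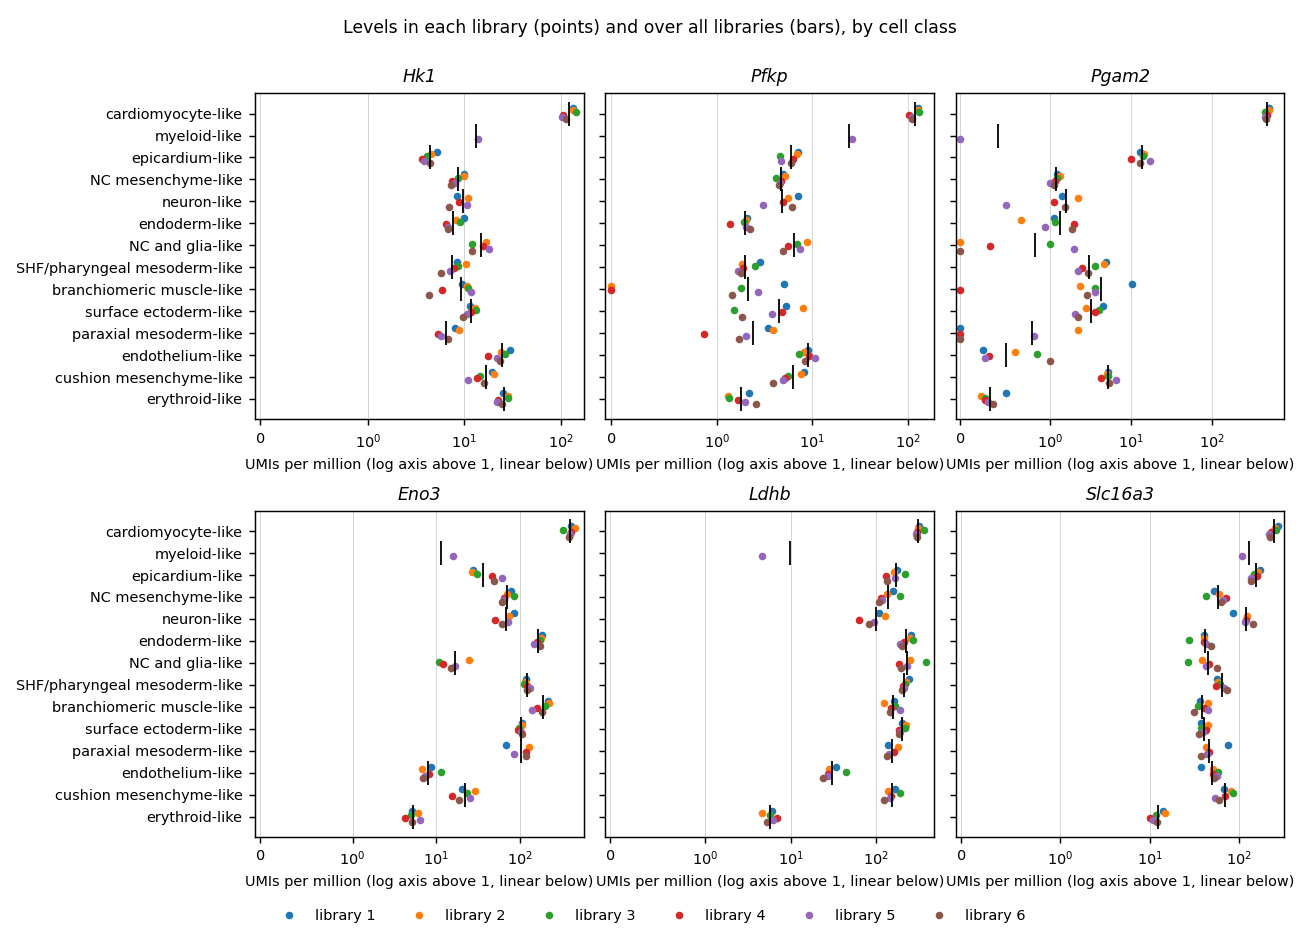
CPM (horizontal axes, log above 1 and linear below) of 6 members in each class; points are libraries of at least 20 cells and black ticks the pooled level. Cardiomyocyte-like points lie apart from all others for Hk1, Pfkp and Pgam2, while Eno3 and Ldhb spread over most classes.

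The 2 mutase genes also differ in the sequence before their start sites, shown because Pgam2 had the largest ratio to the median class of the tested members in cardiomyocyte-like cells. The sequences are the 250 bases upstream of the RefSeq start (build GRCm38.p6, equal in coordinates to mm10), Pgam1 at chr19:41911621-41911870 on the plus strand and Pgam2 at chr11:5803797-5804046 on the minus strand, each 5′ to 3′. Capitals mark ACGTG on either strand, a core bound by hypoxia-inducible factors, in Pgam1, and the MEF2 motif, bound by muscle regulators, in Pgam2. The related core GCGTG is not in capitals and occurred 2 times in the Pgam1 window and 0 times in that of Pgam2.
Pgam1: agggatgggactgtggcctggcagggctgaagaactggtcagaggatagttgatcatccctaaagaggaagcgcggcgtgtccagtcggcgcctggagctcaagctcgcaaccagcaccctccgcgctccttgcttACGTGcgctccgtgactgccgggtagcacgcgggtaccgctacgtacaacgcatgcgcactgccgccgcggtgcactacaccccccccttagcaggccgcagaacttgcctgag
Pgam2: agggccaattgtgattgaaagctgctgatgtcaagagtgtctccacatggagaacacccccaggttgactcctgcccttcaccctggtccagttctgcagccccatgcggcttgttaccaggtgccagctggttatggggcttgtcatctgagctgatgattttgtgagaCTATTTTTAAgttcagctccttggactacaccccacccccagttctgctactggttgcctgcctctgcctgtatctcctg
The MEF2 motif, searched on both strands, was found in 1 of 52 upstream windows of the 34 members, that of Pgam2, and in 2.92% of all 32851 windows of this length. A match is a description of the letters and shows no binding.

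Enolase makes phosphoenolpyruvate. Eno1 was the main form in all 14 classes, but Eno3, the muscle form, also varied among the classes other than cardiomyocyte-like cells. In cardiomyocyte-like cells it ranged from 330 to 462 CPM, median 402, and was called at 5.92 times the median class. Branchiomeric muscle-like (189, ratio 2.76) and endoderm-like cells (168, ratio 2.45) were also called higher. SHF-like cells had 123, paraxial mesoderm-like and surface ectoderm-like cells 103 each. Then came neural crest mesenchyme-like (71.3), neuron-like (68.5) and epicardium-like cells (36.5). Endocardial cushion mesenchyme-like (22.5), neural crest and glia-like (16.8), myeloid-like (11.6), endothelium-like (7.997) and erythroid-like cells (5.34) were called lower. Library ranges overlapped between branchiomeric muscle-like (140 to 224) and endoderm-like cells (147 to 185), so their order is not set, and both lay below the cardiomyocyte-like range. The cardiomyocyte-like level was 405 CPM pooled. The Eno3 share of enolase UMIs was 26.4% in cardiomyocyte-like cells (26.2 to 26.6), 21.3% in branchiomeric muscle-like, 16.5% in endoderm-like and 1.82% in endothelium-like cells. Eno2, the neuronal form, did not pass 1.35 CPM in any class, neuron-like cells included (0.284).

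**Figure D4:**
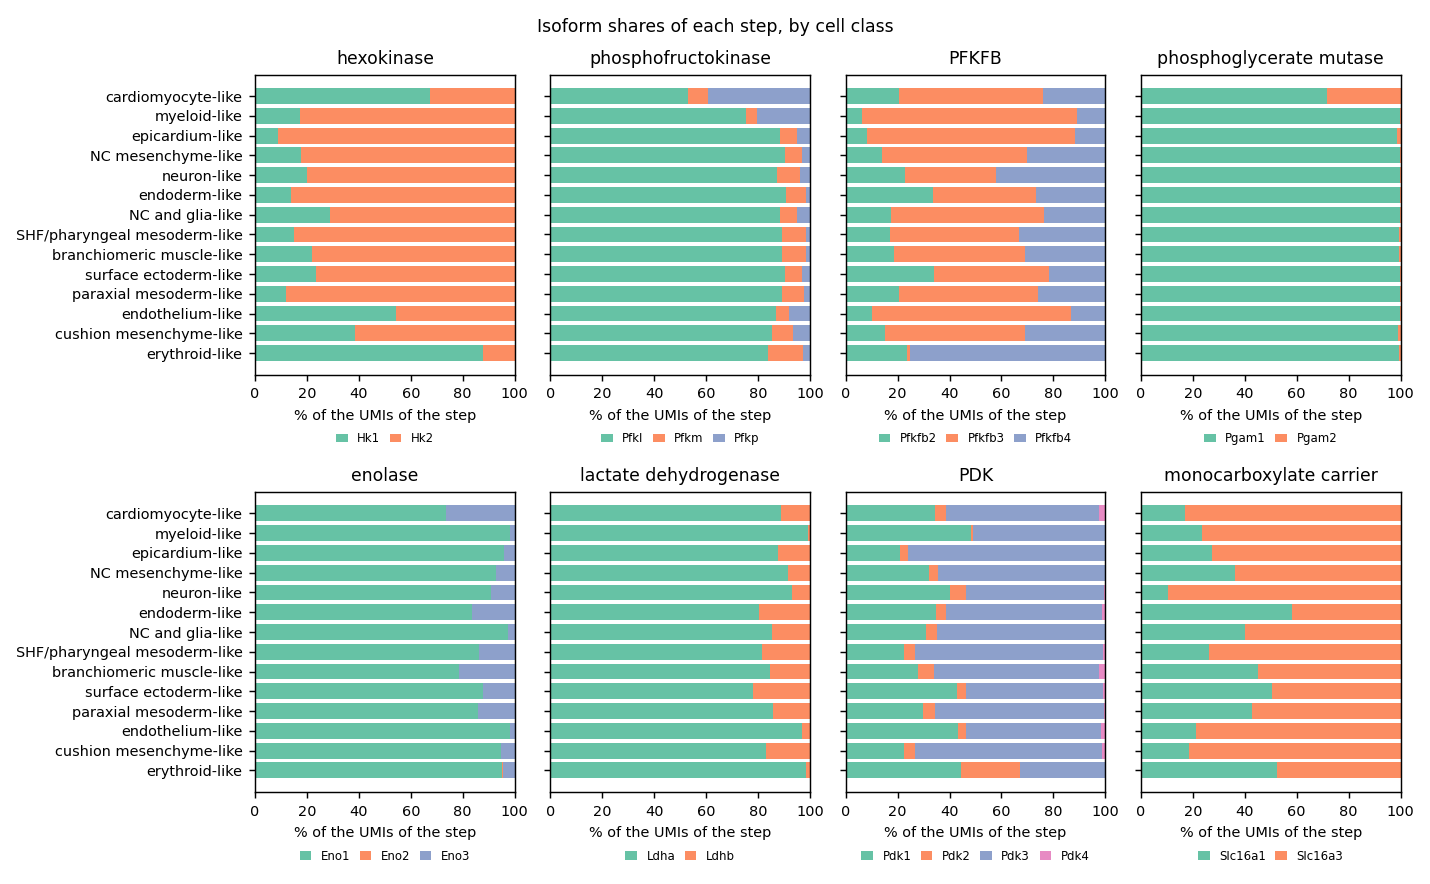
Share of the UMIs of a step (horizontal axes, %) given by each isoform among the members in each class, for 8 steps; Pfkfb1 is not counted. Cardiomyocyte-like bars stand out for Hk1, Pfkp, Pgam2 and Eno3, erythroid-like bars for Hk1 and Pfkfb4.

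Lactate dehydrogenase reduces pyruvate to lactate, and the heart form Ldhb favours the reverse reaction. Ldha was the second most counted member, at 2442 to 2571 CPM over the cardiomyocyte-like libraries, median 2521, and 2.63 times the median class. Ldhb was also called there, at 315 and a ratio of 2.05, but its ratio was 1.90 with cells thinned to 5000 UMIs and 1.996 without library 2, both under the fold asked for. The Ldhb share in cardiomyocyte-like cells was 11.1% (11.03 to 11.2), below the median class at 13.2%. It was largest in surface ectoderm-like (22.1%), endoderm-like (19.6%) and SHF-like cells (18.3%). Ldhb was called lower in endothelium-like (30.3 CPM, ratio 0.189), erythroid-like (5.76, ratio 0.0360) and myeloid-like cells (9.91, ratio 0.0620), where Ldha gave 97.1%, 98.6% and 99.4% of the UMIs. Epicardium-like (131 to 217) and SHF-like libraries (203 to 244) overlapped.

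Upstream windows of this pair are shown since Ldha is a known target of hypoxia-inducible factors. Ldha lies at chr7:46845554-46845803 (plus strand) and Ldhb at chr6:142507958-142508207 (minus strand), same source and build, with ACGTG on either strand in capitals.
Ldha: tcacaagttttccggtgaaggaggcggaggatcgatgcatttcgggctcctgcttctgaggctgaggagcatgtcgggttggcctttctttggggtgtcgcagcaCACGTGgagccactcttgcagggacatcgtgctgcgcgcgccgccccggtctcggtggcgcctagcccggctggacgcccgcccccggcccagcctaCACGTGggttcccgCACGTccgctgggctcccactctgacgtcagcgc
Ldhb: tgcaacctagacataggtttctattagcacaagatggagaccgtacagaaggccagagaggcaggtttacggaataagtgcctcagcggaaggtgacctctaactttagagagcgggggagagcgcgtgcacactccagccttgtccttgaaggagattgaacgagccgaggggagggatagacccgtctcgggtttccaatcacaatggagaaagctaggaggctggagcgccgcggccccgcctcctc
ACGTG occurred 5 times in this Ldha window, of which 4 are the paired strands of 2 CACGTG palindromes. The other RefSeq start of Ldha has its window at chr7:46846832-46847081, with 0 occurrences of ACGTG, and the Ldhb window also has 0. GCGTG, a related core not in capitals, occurred 1 time in each of these 2 windows and 0 times in the first Ldha window. Over the members ACGTG was present in 20 of 52 windows, belonging to 16 of 34 genes, and in 16.6% of all windows. The related GCGTG was present in 27 of 52 (28.2% of all), and AAGGTCA, bound by estrogen-related receptors, in 1 of 52 (4.08%). Some windows of 1 gene overlap, and these values are descriptions only.

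Lactate leaves or enters cells through Slc16a1 (MCT1) and Slc16a3 (MCT4), the latter the low-affinity exporter of glycolytic tissues. Slc16a3 ranged from 218 to 274 CPM over the cardiomyocyte-like libraries, median 241, at 4.93 times the median class. It was also called higher in epicardium-like (155, ratio 3.12), myeloid-like (131, ratio 2.64) and neuron-like cells (120, ratio 2.42), and lower in erythroid-like cells (12.5). Slc16a1 had a different order, with epicardium-like (58.4), endoderm-like (57.3) and cardiomyocyte-like cells (49.9) at the top, the first 2 overlapping in their libraries. It was called lower in endothelium-like (13.5), erythroid-like (13.7), neuron-like (13.9) and endocardial cushion mesenchyme-like cells (15.9). The erythroid-like call was lost when hemoglobin and mitochondrial genes were left out (ratio 0.689). Slc16a1 gave most carrier UMIs in 3 classes: endoderm-like (58.1%), erythroid-like (52.4%) and surface ectoderm-like (50.6%). In cardiomyocyte-like cells it gave 16.9%, and in neuron-like cells 10.4%.

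Pyruvate enters mitochondria through a carrier built of Mpc1 and Mpc2. Mpc1 was called higher in neuron-like cells, at 137 CPM (97.1 to 208 over 5 libraries, ratio 2.80), and lower in endoderm-like (24.9, ratio 0.461) and surface ectoderm-like cells (19.5, ratio 0.360). Mpc2 was called higher in cardiomyocyte-like cells (185, ratio 2.26) and, just past the fold, in myeloid-like cells (164, ratio 2.001). The Mpc1 share of carrier UMIs thus ran from 19.2% in surface ectoderm-like to 65.3% in neuron-like cells, with 31.9% in cardiomyocyte-like cells.

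Inside mitochondria, Pdha1 and Pdhb form the E1 part of pyruvate dehydrogenase. Both were called higher in cardiomyocyte-like cells, Pdha1 at 128 CPM (ratio 2.18) and Pdhb at 159 (ratio 2.38), and lay between 42.2 and 104 elsewhere. Of the inhibitory kinases, Pdk1 (44.1, ratio 2.53) and Pdk3 (75.4, ratio 2.36) were called there too. Pdk3 gave most kinase UMIs in 13 of 14 classes. The exception was erythroid-like cells, with 44.4% from Pdk1, 32.6% from Pdk3 and 22.9% from Pdk2. Pdk2 was highest in that class, at 7.12 CPM, and under 10 in every class. Pdk4, the kinase tied to fatty acid use in the adult heart, was at most 2.95, in cardiomyocyte-like cells. Pcx, which carboxylates pyruvate to oxaloacetate, stayed between 1.24 and 8.70 CPM and was at a ratio of 0.774 in cardiomyocyte-like cells, below the median class in all 6 libraries but under the minimum level.

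In erythroid-like cells the members were low to about the same degree as all genes tested, so the shares below are not particular to them. Of 23 tested members, 14 were lower than the median class (63.4% of all genes) and 2 were higher, Pfkfb4 and Hk1 (3.33%). The median ratio of the members was 0.405, where that of all genes tested was 0.391. Of the 28 members reaching 10 CPM in some class, 20 had their lowest level here (70.4% of all genes). Hemoglobin took 40.2% of all UMIs in this class. In CPM without hemoglobin and mitochondrial genes, 9 of 26 tested members were lower (37.2% of all genes) and 4 higher, Hk1, Pfkfb4, Mpc1 and Pdk2 (7.61%). Pfkfb4 and Pdk2 passed the minimum level there only through erythroid-like cells, as did Pfkm and Pcx, which were not called. The median ratio was 0.710 for the members and 0.668 for all genes tested. Gpi1, Aldoa, Gapdh, Ldha and Slc16a1 were no longer called lower. Ldhb (0.0606), Eno3 (0.126), Pkm (0.147), Hk2 (0.148), Pgam1 (0.149) and Eno1 (0.265) had the smallest ratios on that scale among the members of at least 10 CPM. Ldha (0.678), Aldoa (0.731) and Tpi1 (0.908) came closer to the median class, Pfkl stood at 0.868, and the members called higher were at 7.46 (Pfkfb4), 5.44 (Pdk2), 4.44 (Hk1) and 3.16 times it (Mpc1). The red cell genes Pklr, the liver and red cell pyruvate kinase, and Bpgm, which makes the bisphosphoglycerate that loosens oxygen from hemoglobin, reached 51.6 and 404 CPM in erythroid-like cells, where Pkm had 106. In every other class Pklr was at or under 0.284 CPM.

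In the remaining classes between 0 and 6 members were called in either direction. Endothelium-like cells had 2 of 23 higher, Hk1 and Pfkfb3 (11.3% of all genes), and 3 lower, Eno3, Ldhb and Slc16a1 (5.41%). Epicardium-like cells had 3 of 24 higher, Pgam2, Slc16a3 and Pfkfb3 (11.2%), and 1 lower, Hk1 (3.23%). Myeloid-like cells had 6 of 25 higher, Fbp2, Pfkp, Pfkfb3, Slc16a3, Gpi1 and Mpc2 (12.7%), and 2 lower, Ldhb and Eno3 (20.6%), with 1 library to compare. In that library Fbp2 was 0.765 CPM, from 1 UMI. Fbp2, Pfkp, Pfkfb3 and Hk1, the last not called, passed the minimum level only through myeloid-like cells. Of the 21 members that passed otherwise, 3 were higher. Hk1 and Pfkfb3 in endothelium-like, Pgam2 and Pfkfb3 in epicardium-like and Hk1 and Pfkfb4 in erythroid-like cells also passed only through their class. Neuron-like cells had 2 of 23 higher, Mpc1 and Slc16a3 (12.3%), and 1 lower, Slc16a1 (3.55%). Endoderm-like cells had Eno3 higher (9.02%) and Mpc1 lower (2.08%), each 1 of 22. Branchiomeric muscle-like cells had 1 of 23 higher, Eno3 (5.18%), and 0 lower (0.637%). Surface ectoderm-like cells had 0 of 22 higher (10.4%) and 1 lower, Mpc1 (1.86%). Endocardial cushion mesenchyme-like cells had 0 of 22 higher (11.2%) and 2 lower, Eno3 and Slc16a1 (1.96%). Neural crest and glia-like cells had 0 of 22 higher (5.58%) and 1 lower, Eno3 (3.58%). No member was called in SHF-like cells (6.74% higher and 0.481% lower of all genes), in paraxial mesoderm-like cells (3.45% and 2.12%) or in neural crest mesenchyme-like cells (3.14% and 2.62%). In SHF-like cells Pgam2 was 3.06 CPM, Pfkp 1.98 and Hk1 7.53, against 484, 119 and 122 in cardiomyocyte-like cells.

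Within cardiomyocyte-like cells, 1247 were gated as ventricular and 650 as atrial by chamber markers. Of these markers, Myl2 stood at 3643 against 64.4 CPM and Nr2f2 at 10.3 against 262, in the order ventricular and atrial. Both are genes of the chamber gate lists, so this separation follows from the gating. The other cells of the 2731 were in neither subset. Nppa, a gene of the ventricular list, was 841 CPM in all cardiomyocyte-like cells, 779 in ventricular and 119 in atrial cells. Cells in neither subset thus held more Nppa than both subsets, and the atrial subset may not stand for all atrial cells. How this selection changed the ratios was not tested. The comparison asks whether isoform choice differs between these 2 subsets. Of 26 tested members, 0 were called higher in ventricular cells (1.66% of all genes) and 0 lower (5.42%), and the tested ratios ran from 0.734 to 1.61. Smaller differences recurred in the libraries. Ventricular libraries lay above all atrial libraries for 11 of 26 members (12.9% of all genes) and below for 1, Pgam2 (25.8%). The median ratio of ventricular to atrial was 1.17 for the members and 0.921 for all genes tested.

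Slc16a3 ranged from 237 to 304 CPM in ventricular libraries, median 274, and from 147 to 182 in atrial ones, median 172. Its ratio was 1.61 (1.56 to 1.67, exact binomial interval for counting error). Ldha ranged from 2757 to 2896, median 2822, and from 1624 to 2123, median 2012, with a ratio of 1.43 (1.42 to 1.45). The ratio of Tpi1 was 1.45, followed by Pgk1 (1.36), Eno1 (1.34), Pkm (1.30) and Pgam1 (1.29). In all of these the groups of libraries did not overlap.

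Pgam2, Aldoc and Ldhb went the other way. Pgam2 ranged from 366 to 423 CPM in ventricular libraries, median 395, and from 486 to 635 in atrial ones, median 533, with a ratio of 0.734 (0.719 to 0.749). Aldoc, at 8.33 CPM in ventricular and 11.1 in atrial cells, had a ratio of 0.752 (0.651 to 0.870), atrial above ventricular in 6 of 6 libraries although the groups overlapped. Pfkm had a ratio of 0.889 (0.811 to 0.975), atrial above ventricular in 5 of 6 libraries. Ldhb had a ratio of 0.867 (0.845 to 0.889), atrial above ventricular in 6 of 6 libraries although the groups overlapped. Its share of lactate dehydrogenase UMIs was 9.50% in ventricular and 14.8% in atrial cells. The Pgam2 share of mutase UMIs was 23.0% and 34.4%, and the Slc16a1 share of carrier UMIs 15.0% and 22.6%. Gpi1 (1.01), Hk1 (0.985), Eno3 (0.977), Slc16a1 (0.973) and Mpc2 (0.971) had ratios near 1. Among members under the minimum level, Pfkfb4 (1.75 against 4.98 CPM) and Pfkfb3 (6.14 against 9.81) were higher in atrial cells in 6 of 6 libraries, as was Pdk2 (4.18 against 7.28). Ventricular cells were deeper, with a median of 53379 UMIs against 34920. With every cell thinned to 5000 UMIs, 24 of the 26 tested members kept their side of 1, and Eno3 (1.05) and Mpc1 (1.09) crossed it. The thinned ratios ran from 0.725 for Pfkm to 1.87 for Slc16a3. Pgam2 (0.814) was still higher in atrial cells in 6 of 6 libraries, Ldhb (0.901) in 5 and Aldoc (0.865) in 4.

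**Figure D5:**
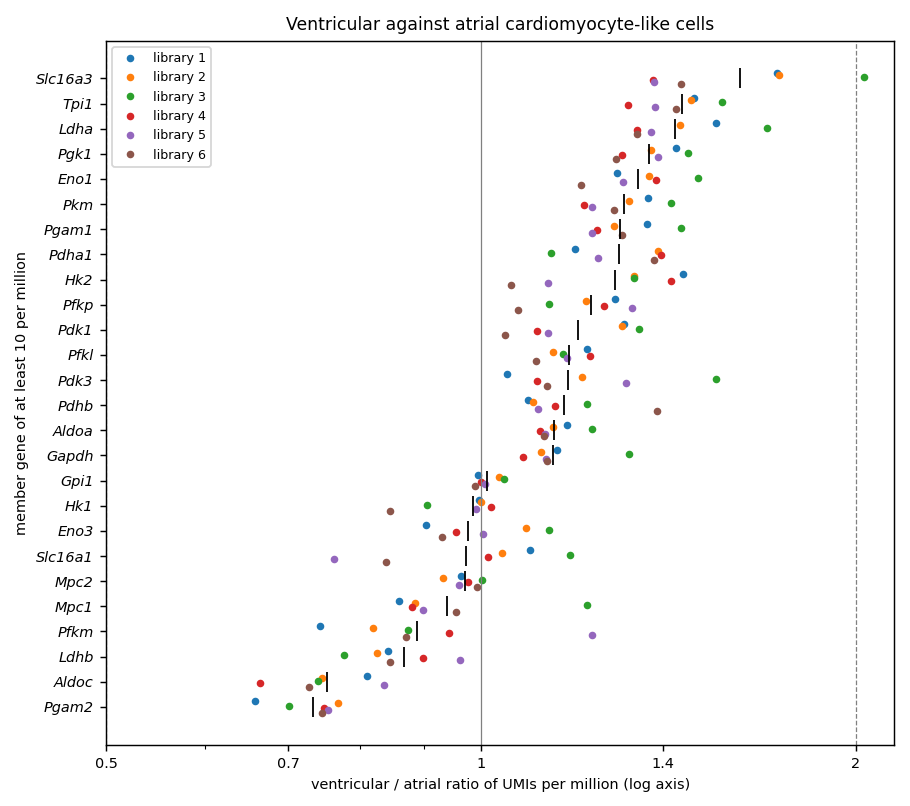
Ratio of ventricular to atrial cardiomyocyte-like CPM (log axis) for the 26 members of at least 10 CPM; points are the 6 libraries and black ticks the pooled ratio, with dashed lines at 0.5 and 2. Slc16a3, Tpi1 and Ldha lie right of 1 in all libraries, Pgam2, Aldoc and Ldhb left of it.

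Genes that feed or branch from the pathway are given by list. Of 10 glycogen genes, 8 were higher in cardiomyocyte-like cells and 1 lower, Pgm2 (6.75 CPM, ratio 0.346), beside the 11.4% and 10.2% of all genes above. Among the 8, Pygm and Pygl passed the minimum level only through cardiomyocyte-like cells. Gyg, the primer of glycogen chains, stood at 1108 CPM (22.6 times the median class), Pygm, muscle glycogen phosphorylase, at 34.2 (14.5 times) and Pgm1, which links glycogen to glycolysis, at 184 (7.14 times). Of 7 tested pentose phosphate genes, 1 was higher, Tigar, and 2 lower, Tkt and Rpia. Tigar too passed the minimum level only through cardiomyocyte-like cells. Of 8 tested genes of NADH shuttles and alanine, 4 were higher (Got1, Mdh1, Slc25a12 and Mdh2) and 0 lower. Of 4 tested genes of the rest of the pyruvate dehydrogenase complex and carrier chaperone, 2 were higher, Dlat and Bsg. Of 5 tested gluconeogenesis and phosphoglycerate genes, 0 were higher and 1 lower, Psat1. Of 8 tested hypoxia-response genes outside glycolysis, 2 were higher, Bnip3 (147 CPM, ratio 4.33) and Higd1a, and 0 lower. In the same list Egln3 peaked in myeloid-like cells (22.3) and Ndrg1 in neuron-like cells (12.6). Of 11 tested regulators, 5 were higher and 1, Myc, lower. The 5 were Ppargc1a (69.7 CPM, ratio 22.5), Ppargc1b, Esrrg (168, ratio 11.3), Esrra and Hif1a (191, ratio 2.03). Ppargc1a, Ppargc1b and Esrra passed the minimum level only through cardiomyocyte-like cells. Esrrg was as high in endocardial cushion mesenchyme-like cells (173). Whether any regulator is related to the member levels was not tested. Epas1, the endothelial hypoxia factor, was 29.2 in endothelium-like cells. Of 16 other isoforms of the same steps in the table, only Pklr and Slc16a7 (34.3 CPM, myeloid-like) reached 10 CPM.

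Several members share near-identical sequence at their 3′ end with other annotated genes. Matches on either strand were counted, so they include overlapping neighbours as well as copies elsewhere in the genome. The last 300 bases of 11 members matched another annotated gene over at least 90 bases at 97% identity or more. Gapdh matched 89 other genes, 85 of them pseudogenes, and their 4 rows in the table held at most 193 UMIs each. Eno1 matched Eno1b, at 5.83 CPM over all retained cells. Reads shared by such copies may be split or dropped, so Eno1 is uncertain by an amount not known here. Mpc1, Aldoa, Pfkp and Pdha1 each matched 1 other gene of the table, the Pfkp match being its neighbour Pitrm1 on overlapping transcripts (21.6 CPM in cardiomyocyte-like cells). Gpi1, Tpi1, Pkm, Ldha and Ldhb matched only genes outside the table. Pgam2, Hk1 and Eno3 had no such match. In GRCm38 (mm10, GENCODE M21), Hk1 lies at chr10:62268855-62379908 (minus strand), Pfkp at chr13:6579768-6648777 (minus), Pgam2 at chr11:5801640-5803733 (minus) and Eno3 at chr11:70657202-70662513 (plus), all protein-coding genes. Of the 2 Aldoa rows, the second, just upstream on the same strand, held 380 of the UMIs and the first 911889.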

How the data were processed

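Single-cell 3′ RNA libraries (10x Genomics Chromium kit v3, per the labels' protocols) were deposited as 1 matrix of whole-number UMI counts for all samples. The descriptions in the labels name a chromatin assay, but the titles, kit and library source name RNA. Per the submitters' processing notes, CASAVA 1.8, Cell Ranger 5.0.0 and Seurat 4 and the build mm10 were used; their settings were not given in the sources used here. Per the file headers, the matrix was written by Cell Ranger 5.0.0; no filter on cells is named there.

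From these counts, barcodes with at least 2500 genes and at most 10% mitochondrial UMIs were retained, which removed 17029 and 371 barcodes. A marker was on in a cell at 2 or more UMIs and at least 10% of its 99.9th percentile level. Chamber gates asked for 2 own markers and fewer than 2 of the other. Doublets were handled by leaving out cells in more than 1 gate. A Scrublet-like score, which called 2564 cells (7.13%), was an alternative. Counts were summed per class and library with Python 3 tools (numpy, pandas, scipy), and a library was compared with at least 20 cells of a class. Tests of STZ against vehicle were not run, as no file pairs libraries with samples. Since cells are not replicates, edgeR and DESeq2 were not used. On simulated counts, the calling rule for cardiomyocyte-like cells recovered 50 of 50 genes at each of the simulated folds 0.2, 0.35, 3 and 5, and called 0 of 8519 unchanged genes among 32285. The simulated counts were Poisson draws from 1 rate per gene shared by all classes and libraries, without variation between libraries or cells. The changed genes were drawn from genes well above the minimum level. Such counts check the code and give no error rate for the real classes. Folds near 2 were not simulated. Gene lists, markers and members were chosen with earlier results of these data known. All members are described. Other pathway genes are named where the highest class had at least 10 CPM and 4 times the median class, at most 3 per list, or where a count of 5 or fewer is given. The latter, and Pfkfb1 and Pygl, were chosen after their values were seen. Gene positions and 3′ ends came from GENCODE M21, and promoter windows from RefSeq (GRCm38.p6). Of the 32285 identifiers, 32158 were found in GENCODE M21. Alternatives covered the cell filter, gates, doublets, scaling, thinning to 5000 UMIs, medians over libraries, minimum levels and leaving out each library.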

Additional observations from a re-analysis of the deposited data

How the results depend on the processing

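No paired analysis was possible because the replicate numbers shared by the vehicle and STZ labels are not carried by any column or barcode, and for the same reason the planned fits of STZ against vehicle, with or without that block and with DESeq2, were not run. Over all settings, 22 to 25 of 34 members peaked in cardiomyocyte-like cells (24 as reported), 16 to 22 were called higher there (18 as reported) and 0 were called between ventricular and atrial cells, except with no minimum level, tried after seeing the data, where 1 was, Pfkfb4 (ratio 0.351). The ratios to the median class ran from 295 to 409 for Pgam2, 23.7 to 29.9 for Pfkp, 11.001 to 13.3 for Hk1 and 5.46 to 6.44 for Eno3. Ratios of Gapdh (1.94 to 2.15) and Ldhb (1.90 to 2.09) crossed the fold of 2. The number of members called lower in erythroid-like cells changed most: 9 without hemoglobin and mitochondrial genes, up to 20 with no minimum level, and 14 as reported.

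Isoform shares in cardiomyocyte-like cells moved beyond their counting intervals but by under 2 percentage points. With 1 more marker asked for, Ldhb was 11.3% and Pfkp 38.7%. With cells in more than 1 gate assigned, Ldhb was 11.4% and Pfkp 38.1%. Without the cells of the highest doublet scores, Eno3 was 26.7%, Pgam2 28.8% and Pfkp 39.8%. With cells thinned to 5000 UMIs, Eno3 was 27.1%, Pgam2 29.8%, Ldhb 11.9%, Hk1 68.6% and Pfkp 37.5%. As medians over libraries, Eno3 was 25.8%, Pgam2 28.0% and Ldhb 10.9%. Leaving out each library in turn gave 26.0% to 27.2% for Eno3, 28.1% to 28.7% for Pgam2, 10.9% to 11.2% for Ldhb, 66.7% to 68.1% for Hk1, 23 to 24 members peaking in cardiomyocyte-like cells and 17 to 18 called higher. Without the doublet-scored cells the myeloid-like class fell under 50 cells and is not described. Depth limits members under 10 CPM, and the myeloid-like class is limited by its 72 cells and 1 library of at least 20 cells.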

Other observations

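The libraries have no treatment label, so their values are given one by one. Within neural crest mesenchyme-like cells, the largest class, library 3 was the lowest of the 6 for 11 of 21 members of at least 10 CPM. It was the lowest for 11.4% of all genes of that level. The same library was the highest for 4 of the 21 members and for 34.4% of all genes. Library 4 was the highest for 9 of 21 (14.6% of all genes). Ldha stood at 1393, 1481, 1214, 1657, 1529 and 1577 CPM in libraries 1 to 6, Pgk1 at 511, 535, 452, 647, 557 and 630, and Slc16a3 at 52.7, 59.3, 42.5, 70.9, 66.4 and 63.4. Ldhb had another order, at 157, 133, 189, 116, 118 and 108. Library 3 was also the lowest for 9 of 22 members in SHF-like cells (11.4% of all genes) and library 6 the highest for 10 of 22 (10.1%). There library 3 was the highest for 2 of 22 (27.9%). Such counts are given for some classes and libraries only. In cardiomyocyte-like cells library 3 was the highest for 10 of 25 (29.1%) and library 5 the lowest for 11 of 25 (25.8%).

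Relative to its level, Eno3 varied more between libraries in epicardium-like than in cardiomyocyte-like cells, though its range in CPM was narrower. In epicardium-like cells it stood at 27.5, 26.7, 30.7, 46.8, 60.8 and 49.3 CPM in libraries 1 to 6.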
